A study of Oncorhynchus mykiss with 24 samples.

Results

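The data described here are the 8 arrays of rainbow trout (Oncorhynchus mykiss) embryos sampled at 28 days post-fertilization (dpf), the beginning of hatch, out of 24 arrays in the series. They were chosen by their labels: each array carried 1 embryo with the OSU/CW genotype and 1 with the OSU/OSU genotype at a QTL for the rate of embryonic development, both of the same sex, in the Cy3 and Cy5 channels. There were 4 female and 4 male arrays and 16 embryos in all, each array with its own pair. The OSU/CW embryo was in Cy3 on 2 female and 2 male arrays and in Cy5 on the other 2 of each sex. The CW allele comes from the fast-developing Clearwater clonal line and the OSU allele from the slow-developing Oregon State University clonal line. All embryos, at the other ages too, were of 1 backcross family (BC4), sired by an OSU/CW male of the preceding backcross on a female of the OSU line, and were kept at a constant temperature. The genotype was read from markers linked to the QTL, so each group is defined by a chromosome segment and not by a known gene. The sexes were assigned from a Y chromosome marker, and each sample is the total RNA of a whole frozen embryo. The QTL allele and other alleles on the same segment cannot be told apart in 1 family, and p-values measure the spread between its embryos.

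Development rate in rainbow trout sets when an embryo hatches, and alleles at this QTL are known to shift that time. Around hatch a trout embryo has circulating red cells filled with hemoglobin, a lens packed with crystallins, an epidermis rich in keratins, contracting trunk muscle, and a liver that begins to release plasma proteins while the yolk is still being absorbed. The comparison of the genotypes at 28 dpf asks which transcripts differ between embryos with and without the fast allele when they are sampled on the same day.

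The array carried 16067 spots of expressed sequence tags (ESTs) with 16028 identifiers, of which 4323 had no description. The median ratio of spot signal to local background in the 16 channels lay between 1.75 and 4.83, and the number of EST spots with a signal above the 90th percentile of negative control spots ran from 6946 to 14412 by channel. In all, 11228 features passed the filter on dim and missing spots. Differences are given as log2 intensity of the OSU/CW embryo minus that of the OSU/OSU embryo on the same array, from a limma fit with dye as covariate. Dye mattered: the unadjusted differences of arrays with the same dye orientation correlated across features at 0.17 to 0.47, and those of arrays with opposite orientation at -0.56 to -0.04. The fitted gap between the dye orientations had a median size of 0.47, and the genotype difference 0.12. The gap counts the dye shift of a ratio once in each orientation, so these sizes are not on the same scale.

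No feature was called between OSU/CW and OSU/OSU embryos at 28 dpf. With limma and Benjamini-Hochberg adjustment, 0 of 11228 features passed an FDR of 0.05 (0% of those tested) and 0 passed an FDR of 0.2. The unadjusted p was under 0.05 for 591 features (5.26%), of which 338 (3.01%) were higher and 253 (2.25%) lower in OSU/CW, and under 0.01 for 99 (0.882%). A model of the kind the methods describe, fitted to all 48 channels with array as a random effect, also gave 0 at an FDR of 0.05 over both sexes. The count depended on the call rule. The rule in the methods is an overall test of 12 treatments and then an FDR of 0.2 over all 66 pairwise contrasts. It called 213 of 11145 features in females and 137 in males, after 1375 passed the overall test. Of the features called, 27 were called in both sexes, 16 of them in the same direction. The adjustment pools the contrasts of age, sex and genotype, and the largest unadjusted limma p called was 0.106. The FDR of 0.2 therefore does not hold for the genotype contrasts alone. The fitted differences ran from -0.92 to 1.12 around a median of 0.0058, with a median standard error of 0.16. For 11055 features (98.5%) the 95% interval of the difference lay within 1 log2 unit on both sides of 0, that is, short of a 2-fold difference in measured intensity. With signals near background in several channels, this does not exclude such differences in RNA. The intervals are averages over the sexes, and by sex the differences ran from -1.37 to 1.5 in females and -1.72 to 1.56 in males. Over both sexes only 2 features reached a fitted difference of 1 or more in size, ceruloplasmin (CB511687) and an EST with no description (CB493371). The latter was at 1.0 ± 0.31 (SE, 6 arrays). Its size is uncertain: its pairs differed by -0.14 to 2.48 before the dye term (median 0.63). Over the alternatives described below its difference ran from 0.098 to 1.66.

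**Figure D1:**
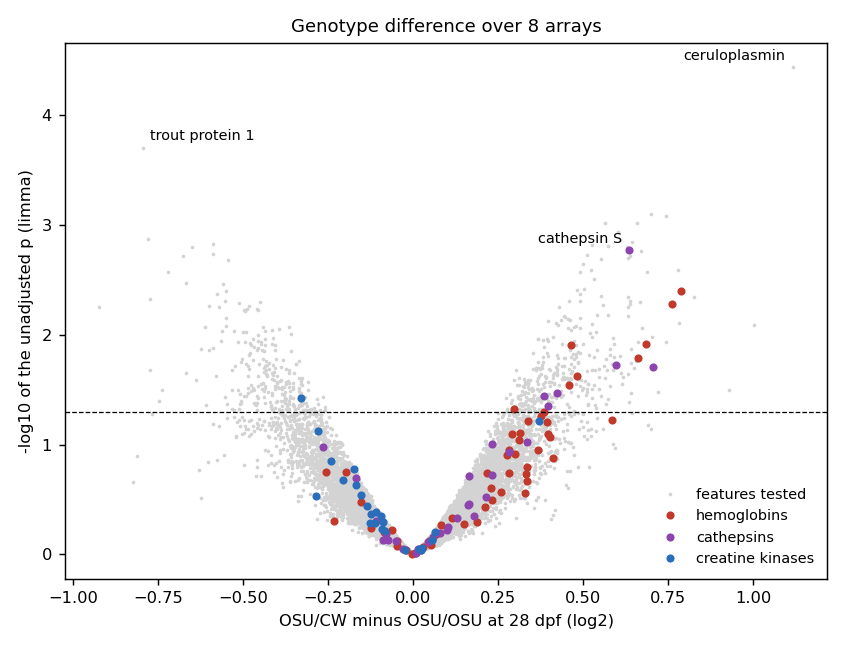
Each point is 1 of the 11228 features, with the fitted difference between OSU/CW and OSU/OSU embryos on the x axis (log2) and the -log10 of the unadjusted limma p on the y axis, and the dashed line marks a p of 0.05. Ceruloplasmin has the smallest p, at 1.12, most hemoglobins and cathepsins lie to the right of 0 and most creatine kinases to the left, and no feature passed an FDR of 0.05.

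The smallest p belonged to ceruloplasmin, the copper-carrying ferroxidase that the liver secretes into plasma. In the 7 arrays that measured it (a poor spot removed 1 male array), log2 intensity in OSU/CW embryos had a lowest value of 9.93, a median of 10.61 and a highest value of 11.20, against 8.48, 9.55 and 10.60 in OSU/OSU embryos. The OSU/CW embryo was the brighter of the pair on all 7 arrays, by 0.13 to 1.64, although the 2 genotypes overlapped across arrays through 1 male array whose OSU/OSU embryo read 10.60. The fitted difference was 1.12 ± 0.17 (SE, limma adjusted p = 0.41), a 2.17-fold ratio with a 95% interval of 0.74 to 1.49 on the log2 scale. It was 1.33 ± 0.21 in females and 0.82 ± 0.25 in males (limma). The spot was dim: it was brighter than the negative controls in 7 of 8 OSU/CW channels but in only 2 of 8 OSU/OSU channels, so the lower values are close to the limit of measurement. At 15 and 19 dpf the same feature gave 0.35 ± 0.21 and -0.19 ± 0.21.

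The second smallest p was that of the differentially regulated trout protein 1 EST (CN442489), a feature chosen after its values were seen. It gave -0.79 ± 0.15 (SE, limma adjusted p = 0.91), with OSU/CW embryos between 9.11 and 11.17 (median 9.62) and OSU/OSU embryos between 9.17 and 11.74 (median 10.88). The OSU/OSU embryo was the brighter on 7 of 8 arrays.

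Across all features, the intensities of the 2 genotypes did not overlap for only 2, 1 in each direction (0.00891% of those tested each way), and both were measured on 6 arrays. Coagulation factor XIII B chain (CB497097), the carrier subunit of the clot-stabilizing transglutaminase, lay between 12.09 and 12.71 in OSU/CW and between 11.37 and 12.06 in OSU/OSU embryos, a difference of 0.56 ± 0.16 (SE). The TTD-A subunit of the TFIIH transcription and repair complex (CB487732) lay between 9.87 and 10.50 in OSU/CW and between 10.62 and 11.44 in OSU/OSU embryos, a difference of -0.61 ± 0.19. Both were chosen after their values were seen and neither passed the FDR.

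Of the 6270 features measured on all 8 arrays, 27 (0.431%) were brighter in the OSU/CW embryo on every array and 15 (0.239%) were dimmer on every array, before any correction for dye. Among the described ones, those higher in OSU/CW with the smallest p included the structural A beta subunit of protein phosphatase 2A (CB506378), which scaffolds that phosphatase. Its OSU/CW embryos had a lowest value of 7.68, a median of 11.53 and a highest value of 12.25, against 7.13, 10.88 and 11.32 in OSU/OSU, and its difference was 0.74 ± 0.17 (SE, limma adjusted p = 0.91). It was 0.74 in females and 0.74 in males, and 1 array of each sex read far below the other 6 in both genotypes. The largest difference of a pair, 1.70, was at the lowest male values, 8.84 in OSU/CW and 7.13 in OSU/OSU, so its size is uncertain. An EST similar to the lectin Cd209f (CB512517) gave 0.56 ± 0.13, with OSU/CW embryos between 9.80 and 10.78 and OSU/OSU embryos between 9.34 and 10.31. Subunit 8 of the CCR4-NOT complex (CA049297), a deadenylase of messenger RNA, gave 0.53 ± 0.13, and the ubiquitin-conjugating enzyme E2 A (CB516480) gave 0.55 ± 0.14. Further features of this kind were cytosolic sulfotransferase 2 (CA044909, 0.53 ± 0.15), the stress-responsive kinase OSR1 (CA056106, 0.48 ± 0.14), the secreted neural glycoprotein noelin (CA060434, 0.46 ± 0.13), a complex I subunit (CB509745, 0.44 ± 0.14), the ubiquitin ligase TRIM25 (CA060690, 0.45 ± 0.14), the RNA-binding protein hnRNP A/B (CA058311, 0.40 ± 0.12), integrin alpha-6 (CA041520, 0.42 ± 0.14) and an EST matching a chicken proline tRNA (CB500101, 0.57 ± 0.14). The only undescribed feature of this kind was CK991039 at 0.70 ± 0.16. None passed the FDR, and their adjusted p was 0.91 in each case. Several were dim in OSU/OSU embryos, so their sizes are uncertain. Only 3 of 8 OSU/OSU channels were above the negative controls for Cd209f, noelin, integrin alpha-6 and the tRNA EST. In OSU/CW 8, 6, 5 and 5 of 8 channels were. For OSR1 and CK991039 there were 4 such channels in OSU/OSU, against 6 and 8 in OSU/CW. For the protein phosphatase 2A subunit there were 6 in OSU/OSU and 5 in OSU/CW. The lowest male values of hnRNP A/B were 9.03 in OSU/CW and 8.33 in OSU/OSU, against medians of 13.04 and 12.61.

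**Figure D2:**
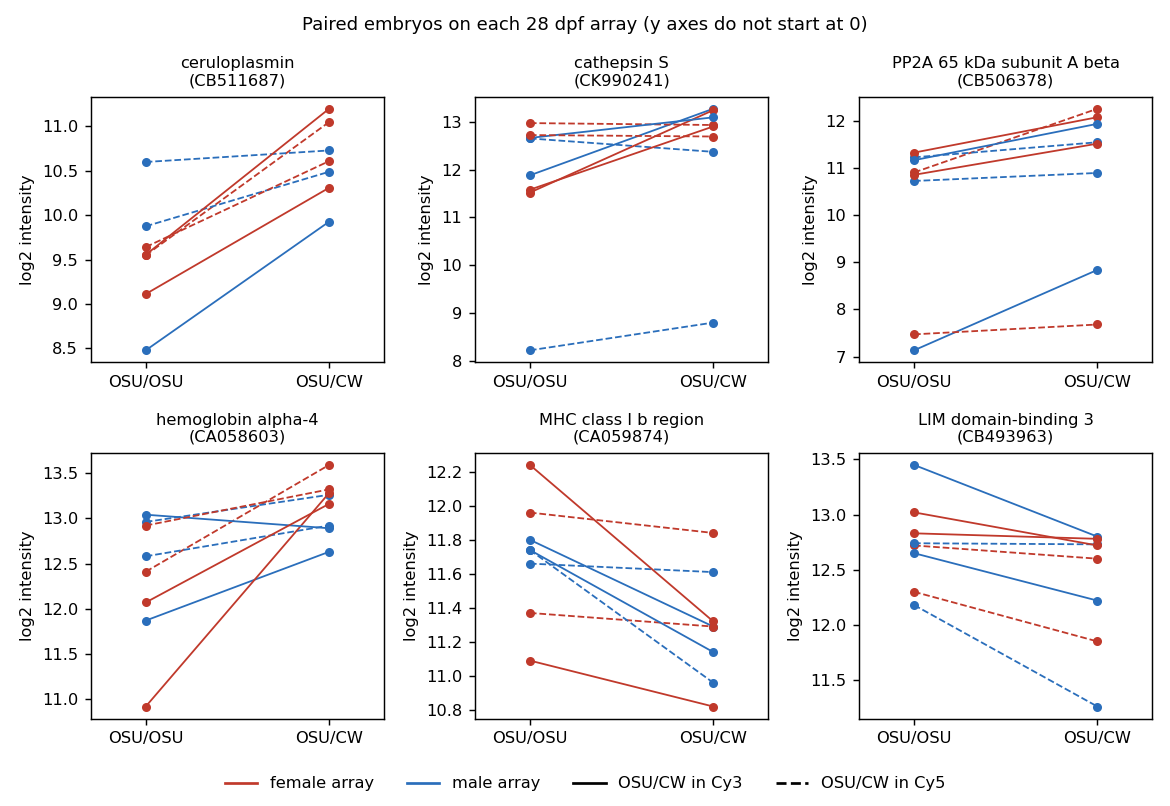
Each line joins the OSU/OSU and the OSU/CW embryo of 1 array, with log2 intensity on the y axis (axes differ between panels), colour for sex and line style for dye. All 7 lines of ceruloplasmin and all 8 of the PP2A subunit run upward, those of the MHC class I b and LIM domain-binding 3 features run downward, cathepsin S is upward on 5 of 8 arrays, and hemoglobin alpha-4 on 7 of 8.

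In the other direction, the lower features with 1 sign on all 8 arrays included a muscle transcript and an EST from the MHC class I b region. LIM domain-binding protein 3 (CB493963), a Z-disc protein of striated muscle, ranged from 11.26 to 12.80 in OSU/CW (median 12.66) and from 12.18 to 13.45 in OSU/OSU embryos (median 12.73), a difference of -0.37 ± 0.14 (SE). An EST from the MHC class I b region (CA059874) ranged from 10.82 to 11.84 in OSU/CW and from 11.09 to 12.24 in OSU/OSU embryos and differed by -0.42 ± 0.13. An immunoglobulin superfamily member 4C EST (CA040781), a cell adhesion molecule in mammals, gave -0.46 ± 0.14, and phospholipase AdRab-B (CB502615) gave -0.49 ± 0.15. The EST CB508108, which matches the 5' flanking region of a masu salmon alpha-glycoprotein subunit gene, gave -0.53 ± 0.17. Its size is uncertain: the fitted difference was -0.18 in females and -0.87 in males, where an OSU/CW embryo read 7.91. An EST matching a salmon CHA gene (CA040745) gave -0.36 ± 0.12 and an MPN domain protein (CB514339) -0.45 ± 0.15. The remaining described features were uncharacterized protein L511 (CA052569, -0.33 ± 0.13), the complex I flavoprotein 2 (CA041328, -0.27 ± 0.11) and cytochrome c1 (CB488964, -0.17 ± 0.12). The undescribed EST CA058532 gave -0.78 ± 0.19, the undescribed CB502934 -0.55 ± 0.16 and the undescribed CA057114 -0.48 ± 0.14. None passed the FDR. Some were dim, so their sizes are uncertain. For CB508108, CB502934 and CA057114, 4, 4 and 3 of 8 OSU/CW channels were above the negative controls. In OSU/OSU 5, 6 and 5 of 8 channels were.

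Cytoplasmic actin, a protein that nearly every cell makes, served as a reference. The 11 ESTs described as cytoplasmic actin 1 gave differences between -0.17 and 0.10, with none at an unadjusted limma p under 0.05.

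Among the gene groups, hemoglobins had the highest median difference with all 8 arrays. Without array 26 lens crystallins were higher (0.25 against 0.20). The list held 66 ESTs, of which 55 were tested, and 44 of these had a difference above 0 (51.2% of all features did), with a median of 0.27 beside 0.0058 for all features. With an unadjusted limma p under 0.05 there were 8 higher and 0 lower, beside 3.01% and 2.25% of all features. These ESTs are paralogs of alpha and beta chains that can cross-hybridize, so they are not independent measurements. In whole embryos, more red cells and more transcript per red cell cannot be told apart.

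The sexes gave different hemoglobin values. On the female arrays 48 of 55 ESTs were above 0 (50.4% of all features), with a median of 0.48, and 23 had an unadjusted p under 0.05, all higher in OSU/CW, against 3.19% of all features higher in females. On the male arrays 24 of 55 were above 0 (52.4% of all features), the median was -0.03, and 1 was higher with an unadjusted p under 0.05 (2.1% of all features). The median difference of the list, less the dye effect, was 0.29 to 0.79 on the 4 female arrays and -0.21 to 0.40 on the 4 male arrays, so the sexes overlapped. The difference between the sexes had an unadjusted p under 0.05 for 15 of the 55, each larger in females (2.29% of all features), but the lowest adjusted p for it was 0.99 (limma).

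By chain, the 10 ESTs of hemoglobin alpha-4 had a female median of 0.72 and a male median of 0.06, the 12 of hemoglobin alpha 0.59 and -0.02, and the 8 of hemoglobin beta 0.65 and 0.03. The 2 of the embryonic alpha subunit had 0.095 and -0.0048, and the 2 of beta-2 had -0.03 and -0.10. The beta-2 EST CB494741 had the smallest p of the list below 0, at -0.20 ± 0.14 (SE). Hemoglobin alpha-4 (CA058603) was the member with the smallest p over both sexes, at 0.79 ± 0.22 (SE, limma adjusted p = 0.91). In females its OSU/CW embryos read 13.59, 13.28, 13.32 and 13.16 and their OSU/OSU partners 12.41, 10.92, 12.92 and 12.07, so the genotypes did not overlap. In males the OSU/CW embryos read 12.63, 12.92, 13.26 and 12.89 and their partners 11.87, 12.58, 12.96 and 13.04, so they did. The fitted difference was 1.26 in females and 0.31 in males. This EST was picked for its small p, and how many of all features lacked overlap within females was not counted.

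The smallest p of the female comparison was also a hemoglobin alpha-4 EST (CA049318), at 1.46 ± 0.22 (SE, limma adjusted p = 0.28). A hemoglobin beta EST (CA049313) gave 1.5 ± 0.27, with the 3 female OSU/CW embryos measured at 13.16, 12.51 and 13.07 and their partners at 12.39, 12.09 and 10.44. No hemoglobin passed an FDR of 0.05 in females. When the arrays of all ages shared 1 estimate of the spread, this beta EST did (1.58 ± 0.27, limma adjusted p = 0.033), together with an EST similar to mouse Zfyve28 (CB516985, 1.12 ± 0.19), a zinc finger protein of endosomes. The latter was above the negative controls in 6 of 8 OSU/CW but only 2 of 8 OSU/OSU channels, so its size is uncertain. Without background correction 4 features passed in females, the alpha-4 and beta ESTs named here, another hemoglobin alpha-4 EST (CA049305) and a TGF-beta-inducible early growth response protein 3 EST (CB516494), with adjusted p of 0.0094 to 0.048 (limma). These features were chosen after their values were seen.

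The count depended on single arrays. Without female array 39, 12 hemoglobins had an unadjusted p under 0.05 in females and the median was 0.41. Over both sexes the count of 8 was 3 without array 39, 4 without female array 26, 16 without male array 28 and 22 without male array 37. At the earlier ages the list's median was 0.06 at 15 dpf and 0.06 at 19 dpf, with 2 ESTs higher and 1 lower at an unadjusted p under 0.05 at each age. Of all features, 5.49% had such a p at 15 dpf (2.56% higher, 2.93% lower) and 6.1% at 19 dpf (3.62% higher, 2.48% lower).

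**Figure D3:**
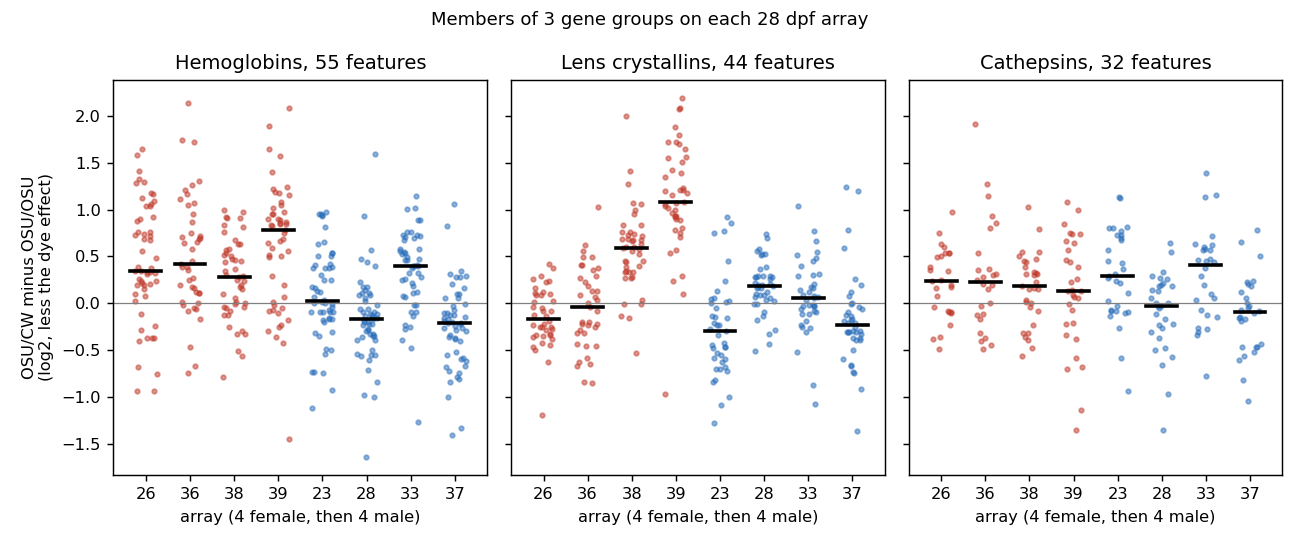
Each point is 1 feature on 1 array, with the difference between the OSU/CW and OSU/OSU embryo less the fitted dye effect on the y axis (log2), females in red and males in blue, and black bars give the median on each array. The hemoglobin medians are above 0 on all 4 female arrays and on 2 of 4 male arrays, the crystallin medians reach 0.59 and 1.08 on arrays 38 and 39 and are near or below 0 on arrays 26 and 36, and the cathepsin medians are above 0 on all 4 female and 2 of 4 male arrays.

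Genes of heme synthesis and iron storage, which red cells also need, gave smaller values. Of 55 tested, 42 were above 0 (51.2% of all features) with a median of 0.11. With an unadjusted p under 0.05, 1 was higher (3.01% of all features), a ferritin middle subunit EST (CB506201, 0.34 ± 0.15 SE). The member with the smallest p below 0 was another ferritin middle subunit EST (CA037206, -0.30 ± 0.21).

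Lens crystallins, the structural proteins of the lens, were above 0 for 42 of 44 tested ESTs (51.2% of all features), with a median of 0.18. None had an unadjusted p under 0.05 over both sexes. In females the median was 0.38 and 15 were higher at an unadjusted p under 0.05 (3.19% of all features). In males the median was -0.05 and none was. Gamma crystallins M2 and M3 had the most ESTs, 14 and 7, with female medians of 0.51 and 0.60. ESTs of the same crystallin were measured in the same embryos, so they are not independent measurements. The female values rested on 2 arrays. The list's median, less the dye effect, was 1.08 on array 39 and 0.59 on array 38, but -0.16 on array 26 and -0.03 on array 36. Without array 39, 26 of 44 were above 0 over both sexes with a median of 0.03, and 2 had an unadjusted p under 0.05 in females, and without array 38 that female count was 5. The member with the smallest p was gamma crystallin B (CB497737) at 0.31 ± 0.14 (SE). For the crystallin list the median difference was -0.084 at 15 dpf and 0.20 at 19 dpf, in other embryos.

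Cathepsins, the lysosomal proteases, were above 0 for 24 of 32 tested ESTs (51.2% of all features) with a median of 0.12. At an unadjusted limma p under 0.05, 6 were higher and 0 lower (3.01% and 2.25% of all features). All 4 tested ESTs of cathepsin S, a cysteine protease of antigen-presenting cells, were among the 6. They share a description and were measured in the same embryos, so they are not independent measurements. They gave 0.63 ± 0.16 (SE, CK990241), 0.70 ± 0.26 (CA053623), 0.60 ± 0.22 (CB514208) and 0.39 ± 0.16 (CB493711). These rested in part on the dye term: before it, the OSU/CW embryo was the brighter on 5 of 7 arrays for CA053623, 4 of 6 for CB493711 and 3 of 6 for CB514208. Without a dye term CB514208 gave 0.15, and with poor spots kept CB493711 gave 0.11, neither with an unadjusted p under 0.05. The EST with the smallest p, CK990241, had a median of 12.92 in OSU/CW and 12.27 in OSU/OSU embryos, and 1 male array read 8.81 and 8.23, below the range of 11.52 to 13.27 of all others. Its OSU/CW embryo was the brighter on all 4 arrays with OSU/CW in Cy3 and on 1 of 4 with OSU/CW in Cy5. The 4 ESTs had a median difference of 0.70 in females and 0.43 in males. The 4 ESTs of cathepsin B and 11 of cathepsin L had medians of -0.02 and 0.13. A cathepsin L EST (CK990496) had the smallest p below 0 in the list, whose differences ran from -0.27 to 0.70. Cathepsins F and D each had 1 EST among the 6. Without array 33, 36 or 39 the count of 6 was 3 in each case.

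**Figure D4:**
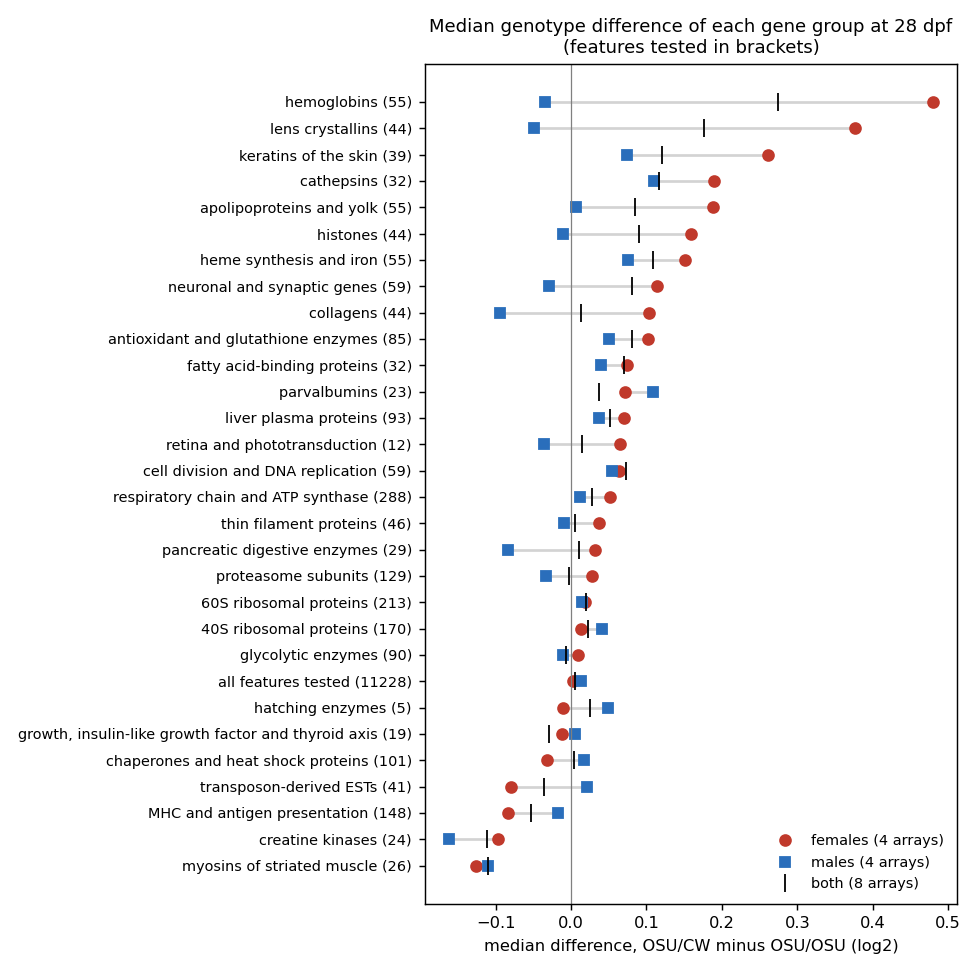
Points give the median difference between OSU/CW and OSU/OSU embryos (log2, x axis) over the tested features of each gene group in females (circles), in males (squares) and over both sexes (bars), with the number of features in brackets. Hemoglobins (0.48 in females, -0.03 in males) and lens crystallins (0.38 and -0.05) are farthest apart between the sexes, and all features together lie at 0.0025 in females and 0.013 in males.

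Plasma proteins of the liver, the group that holds ceruloplasmin, had a median near that of all features, 0.05 over 93 tested ESTs, but 8 were higher and 1 lower at an unadjusted limma p under 0.05 (3.01% and 2.25% of all features). Besides ceruloplasmin and 1 of 4 ESTs of factor XIII B, the higher ones were alpha-2-macroglobulin, a protease inhibitor of plasma, at 0.83, and 1 EST each of plasminogen, serotransferrin-1 and serum albumin 1 and 2 ESTs of serum albumin 2. The 5 ESTs of serum albumin 2 had a median of 0.26, 0.64 in females and 0.10 in males. The lower one was complement C3-1 (CB492969, -0.28 ± 0.12 SE), 1 of 10 ESTs of that protein, whose median was 0.04. The list's counts depended on single arrays: 8 higher and 1 lower became 3 and 0 without array 36, and 14 and 1 without array 37.

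Apolipoproteins and yolk proteins, which carry lipid, had a median of 0.09 over 55 tested ESTs, with 5 higher and 0 lower at that threshold (3.01% and 2.25% of all features). Apolipoprotein B-100 (CB496646) had the smallest p, 0.63 ± 0.18 (SE, limma adjusted p = 0.91), and the 10 ESTs of that protein had a median of 0.26. Differences in the list ran from -0.44 to 0.63, and a putative 14 kDa apolipoprotein (CA037726) had the smallest p below 0. Liver fatty acid-binding protein (CK990953) gave 0.65 ± 0.24 and intestinal fatty acid-binding protein (CB498443) -0.34 ± 0.14, and the median of that list was 0.07. Among antioxidant enzymes, with a median of 0.08 over 85 ESTs, glutathione S-transferase Mu 3 (CA057678), a detoxifying enzyme, gave 0.63 ± 0.15.

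Keratins of the skin were above 0 for 32 of 39 tested ESTs (51.2% of all features), with a median of 0.12. At an unadjusted p under 0.05, 2 were higher (3.01% of all features). Both were type I keratin 13, including CB502767 at 0.42 ± 0.16 (SE, 0.43 in females and 0.42 in males). Differences in the list ran from -0.19 to 0.46, and type I keratin 18 (CA042066) had the smallest p below 0. In females 6 keratins were higher at that threshold (3.19% of all features) and in males none was (2.1%), with medians of 0.26 and 0.07. Without array 26, 36 or 39 the female count was 1, and without array 33 or 36 the count over both sexes was 0. Histones had a median of 0.09 and none passed that threshold over both sexes.

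Among muscle groups, creatine kinases and myosins had medians below 0. Creatine kinases, which buffer ATP in muscle and brain, were below 0 for 18 of 24 tested ESTs with a median of -0.11. Of all features, 51.2% were above 0. At an unadjusted p under 0.05, 1 was lower (2.25% of all features), the sarcomeric mitochondrial form (CK990405, -0.33 ± 0.14 SE). It ranged from 11.95 to 12.97 in OSU/CW and from 12.64 to 13.09 in OSU/OSU embryos. Differences in the list ran from -0.33 to 0.37, and the testis isozyme (CA054257) had the smallest p above 0. Myosins of striated muscle were below 0 for 19 of 26 with a median of -0.11. The only 1 with an unadjusted p under 0.05 was higher (3.01% of all features), a cardiac myosin light chain 1 (CB493388, 0.54 ± 0.20). Myosin-8 (BU965864) gave -0.32 ± 0.15. Thin filament proteins had a median of 0.01, with slow troponin I (CB509964) at 0.49 ± 0.20 and tropomyosin-1 alpha (CB496388) at -0.51 ± 0.21. Both sizes are uncertain: 5 and 6 of 8 channels of each genotype were above the negative controls. Tropomyosin-1 alpha fell to 8.89 in OSU/CW and 9.94 in OSU/OSU, against medians of 14.58 and 14.62. Parvalbumins, calcium buffers of fast muscle, had a median of 0.04 and none with an unadjusted p under 0.05. The medians of the creatine kinases and myosins were -0.014 and -0.062 at 15 dpf and 0.13 and 0.12 at 19 dpf.

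Neuronal and synaptic genes had a median of 0.08 over 59 ESTs, with 4 higher and 1 lower at an unadjusted p under 0.05 (3.01% and 2.25% of all features). A neurofilament heavy EST (CA051506) gave 0.57 ± 0.18 (SE), with 0.92 in females and 0.22 in males. Ependymin, a secreted glycoprotein of fish brain, was found on both sides, with an ependymin EST (CA059209) at -0.46 ± 0.15 and medians of 0.17 for the 7 ESTs of ependymin-1 and 0.27 for the 4 of ependymin-2. ESTs listed under MHC and antigen presentation were below 0 for 93 of 148 tested, where 51.2% of all features were above 0. Some of them are described only by the MHC class I b region, without a named gene. The median of the list was -0.05, with 4 higher and 6 lower, beside the same 3.01% and 2.25%. Beta-2-microglobulin (CA053924), the light chain of MHC class I, gave 0.47 ± 0.17 in the opposite direction.

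Hatching enzymes, the proteases that dissolve the egg envelope, were on the array as 9 ESTs and 5 were tested. High choriolytic enzyme 1 (CA048927) gave 0.74 ± 0.24 (SE, 6 arrays, limma adjusted p = 0.91), another EST of that enzyme (CK990640) gave -0.20 ± 0.17, and the median of the 5 was 0.02. The size for CA048927 is uncertain. Before the dye term its pairs differed by -0.21 to 2.66 (median 0.39). A female OSU/OSU embryo read 9.29, against a median of 11.18 in OSU/OSU embryos. Over the alternatives described below the difference ran from 0.44 to 0.98. The growth, insulin-like growth factor and thyroid group had 19 tested ESTs, a median of -0.03 and none with an unadjusted p under 0.05. Its members with the smallest p were somatolactin (CA768729, 0.34 ± 0.26), a pituitary hormone of fish, and thyroglobulin (CB493620, -0.50 ± 0.33), the thyroid hormone precursor. The thyroglobulin value ran from -0.68 to -0.12 over the alternatives described below, and array 36 lay far from the other arrays. The group was dim, with a median of 11 of 16 channels above the negative controls. Neither of the 2 ESTs of circadian clock genes passed the filter.

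Groups that every cell uses stayed close to the median of all features. Medians were 0.02 for 170 ESTs of 40S and 0.02 for 213 of 60S ribosomal proteins, -0.0020 for 129 proteasome subunits and 0.0043 for 101 chaperones, 0.03 for 288 ESTs of the respiratory chain and -0.01 for 90 glycolytic enzymes. The respiratory chain had 10 higher and 4 lower at an unadjusted p under 0.05, near the shares over all features (3.01% and 2.25%). Its members with the smallest p were cytochrome c oxidase subunit 3 (CB514540, 0.63 ± 0.19 SE) and cytochrome c oxidase polypeptide VIa (CA037885, -0.52 ± 0.17). Within a family, single ESTs could oppose each other, as for glyceraldehyde-3-phosphate dehydrogenase at 0.65 ± 0.24 (CB501837) and -0.60 ± 0.18 (CA038327). Cell division genes and collagens had medians of 0.07 and 0.01, with cell division protein kinase 2 (CB493303) at -0.42 ± 0.18, collagen alpha-1(X) (CB498566) at 0.46 ± 0.17 and a type XII collagen EST (CB497151) at -0.59 ± 0.20.

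Taken by sex, the genotype difference gave 0 features at an FDR of 0.05 in females and 0 in males, with lowest adjusted p of 0.28 and 0.999 (limma). The unadjusted p was under 0.05 for 670 features in females (5.97%; 3.19% higher and 2.78% lower) and 430 in males (3.83%; 2.1% higher and 1.73% lower). The smallest p below 0 in females was that of heterogeneous nuclear ribonucleoprotein C (CA063918), an RNA-binding protein, at -1.045 ± 0.20 (SE), against 0.26 in males. The smallest p in males was that of an undescribed EST (CB501008) at -0.91, against 0.24 in females. Both were chosen after their values were seen. For the difference between the sexes, 0 features passed and 510 (4.54%) had an unadjusted p under 0.05. The smallest p were those of an undescribed EST (CA058396, -0.67 in females and 1.03 in males), NADPH oxidase 3 (CA063072, -0.44 and 0.82), an enzyme that makes superoxide, and C11orf77 homolog (CA051263, -0.78 and 0.58).

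The QTL comparison was also made at 15 dpf (eyed stage) and at 19 dpf (caudal flexing), with 8 other arrays at each age and other embryos. Neither age gave a feature at an FDR of 0.05. The genotype difference at 28 dpf minus that at 15 dpf passed an FDR of 0.05 for 0 of 11221 features, and 626 (5.58%) had an unadjusted p under 0.05. Minus that at 19 dpf, 0 of 11220 passed and 542 (4.83%) had an unadjusted p under 0.05. The smallest p of the first were those of an MHC class I b region EST (CB510708, -0.50 at 28 dpf and 0.49 at 15 dpf), an EST matching a char GnRH1 gene (CA044489, -0.41 and 0.49) and the LOH 11 region 2 gene A (CA055511, -0.30 and 0.52). Those of the second were noelin (CA060434, 0.46 at 28 dpf and -0.50 at 19 dpf, a difference of 0.96, limma adjusted p = 0.81), an undescribed EST (CA063689, 0.14 and -1.07) and inositol-3-phosphate synthase (CA063158, -0.27 and 0.78), the first enzyme of inositol synthesis.

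**Figure D5:**
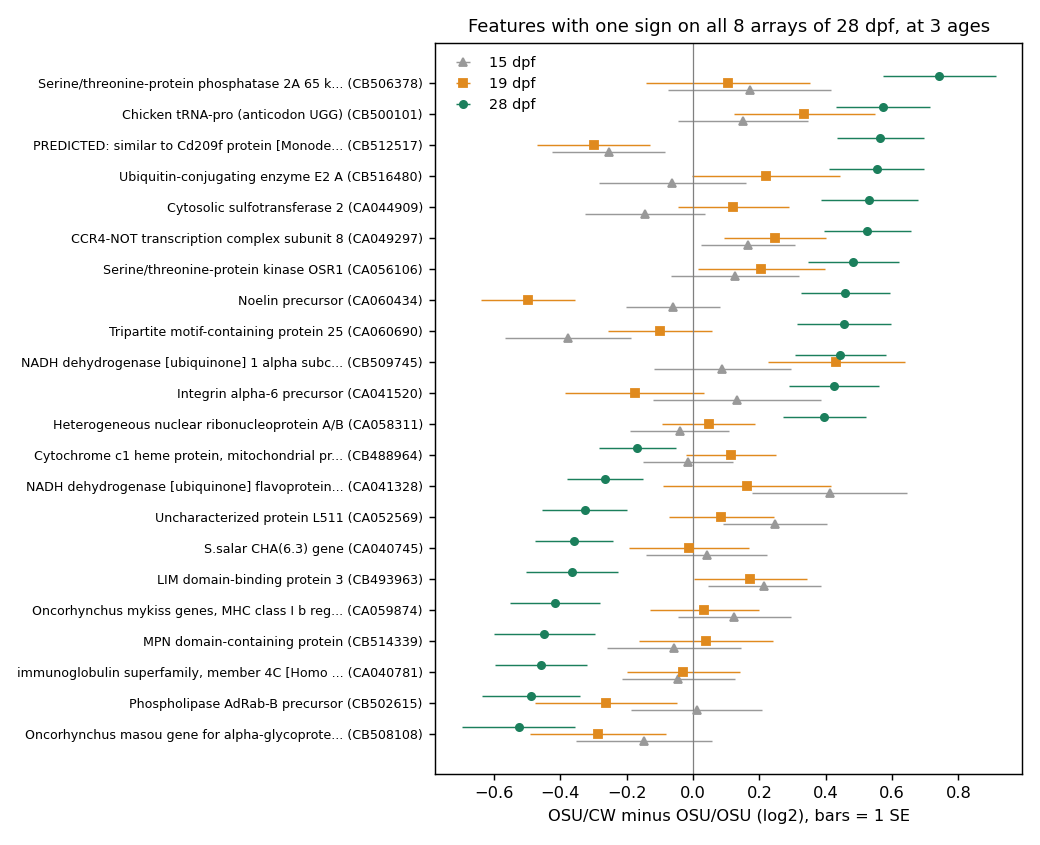
Points give the difference between OSU/CW and OSU/OSU embryos (log2, x axis) with bars of 1 SE at 15, 19 and 28 dpf. Shown are 22 of the described features with 1 sign on all 8 arrays of 28 dpf, those with the smallest p in each direction. These were chosen for their values at 28 dpf, where they lie at -0.53 to -0.17 and 0.40 to 0.74, and at the other ages they lie on either side of 0.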

How the data were processed

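Total RNA of single embryos was labelled with Cy3 or Cy5 and hybridised to a 16K salmonid cDNA array. The authors deposited raw scanner output, the mean pixel intensity of a spot beside that of the background around it, not subtracted, 1 file a channel. How the scanner was set is not stated in the sources used. They also deposited a table of scores, quotients of centred log signals that could be rebuilt from the scanner values, whose centred logs served as an alternative.

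Intensities were corrected by normexp (offset 50) and loess within arrays in limma 3.58.1 (R 4.3.3), with control spots at weight 0, poor spots missing and spots of an EST averaged. Levels in single channels were made comparable by quantile normalization of the average intensity (Aquantile). A feature needed a signal over the 90th percentile of negative controls in at least 8 of 16 channels and ratios on at least 6 of 8 arrays, with 2 or more in each dye orientation and sex. Ratios of OSU/CW over OSU/OSU were fitted with dye as covariate, lmFit and eBayes gave the tests, and Benjamini-Hochberg adjustment ran over all tested features at an FDR of 0.05. Each array is the pair, since both genotypes lie on it. Sexes and their difference were contrasts of the same arrays. Differences between ages used all 24 arrays.

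Features were named by rule: in each direction the 12 described and 3 undescribed with the smallest p among those with 1 sign on all 8 arrays, the member of each gene list with the smallest p in each direction, the 3 with the smallest p for sex and for each age difference, and cytoplasmic actin. Others are said to be chosen after their values were seen. Not every feature picked by rule is described here. Lists were made from the descriptions in the files. Members and lists were chosen with earlier results of these data known, and false matches were removed after values were seen. The fits were tested on simulated data. Genome positions and sequences of the ESTs were not used here. The alternatives changed the background, scaling, filters, dye and array terms, the arrays fitted and the call rule.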

Additional observations from a re-analysis of the deposited data

Results flagged for a closer look

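Of 145 sets of arrays examined, 2 held a value far from the rest, a smaller share than the 1 in 20 or so that chance gives. Thyroglobulin (CB493620) was -2.768 on female array 36 after removing the dye effect, and the nearest of the other 6 arrays was -0.57. Its OSU/OSU embryos reached 11.97 in females, against a median of 9.85 over both sexes. The lowest female OSU/CW value was 9.20. Actin, cytoplasmic 1 (CA057774) was 0.4503 on female array 26, and the nearest of the other 7 arrays was -0.03.

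Among features, only the named ones were checked for opposite signs in the sexes after removing the dye effect. For 3 of them all female arrays lay on one side of 0 and all male arrays on the other. How many of all features did so was not counted. The female minus male difference was -1.268 for NADPH oxidase 3 (CA063072), -1.36 for C11orf77 homolog (CA051263) and 1.148 for an undescribed EST (CB501008). These features had been picked for the size of their sex difference or of their male difference, and in the limma test of that difference the lowest adjusted p over all features was 0.99.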

How the results depend on the processing

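The count of 0 features at an FDR of 0.05 held for the genotype difference over both sexes under every alternative background, scaling, filter, dye, weighting and array choice tried, and it was 0 to 0 over the fits without 1 array, also in females, in males and for the difference between the sexes. Treating the 2 embryos of an array as unpaired (no replicate block) also gave 0. In females it was 4 without background correction and 2 when all 24 arrays shared 1 fit. The call rule changed it most. With the 2-step rule of the methods it was 323 in either sex, 213 in females and 137 in males, with 122 higher in OSU/CW females and 75 in males among the 1375 of 11145 features that passed the overall test. Of 17 hemoglobins and 35 lens crystallins that passed it, 13 and 12 were higher in females, and 0 and 0 in males. The overall test used the same embryos, and hemoglobin ESTs can cross-hybridize, so these member counts are not separate support. The largest unadjusted limma p called by the rule was 0.106. At an unadjusted p under 0.05 the count was 591 over both sexes (99 under 0.01), 670 in females and 430 in males. At that threshold it was 510 for the difference between the sexes, 626 for 28 minus 15 dpf and 542 for 28 minus 19 dpf. Ceruloplasmin ran from 0.47 to 1.47 over its alternatives, with a lowest adjusted p of 0.052 from the authors' centred logs (limma). Microsomal glutathione S-transferase 2 (CA038571, -0.30) turned to 0.029 with poor spots kept, and crystallin J1B (CA042064, -0.12) ran from -0.21 to 0.023 over the fits without 1 array, the latter without array 39. The cause was not tested. Leaving out single arrays for the gene lists was chosen after seeing the data. Signals near background in several channels limit the dim features, ceruloplasmin among them.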
